A study of Mus musculus with 10 samples.

Results

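The clustered histone genes are the genes of the mouse histone clusters, taken here as all 67 symbols of the form Hist1h to Hist4h among the 31053 genes of the count matrices. They comprise 6 linker histone H1 genes, 18 H2A genes, 18 H2B genes, 12 H3 genes and 13 H4 genes. The Hist1 cluster holds 54 of them on chromosome 13, the Hist2 cluster 10 on chromosome 3, the Hist3 cluster 2 on chromosome 11, and Hist4h4 lies alone on chromosome 6 (genome build GRCm38, mm10). Their transcripts were counted by droplet-based 3′ single-cell RNA sequencing of dissociated cortex from 10 mouse embryos at E16.5, with 1 library per embryo. There were 3 wild-type embryos (WT), 4 heterozygous embryos (Gatad2b stop/+, Het) and 3 homozygous embryos (Gatad2b stop/stop, KO), all on the C57BL/6N-A tm1Brd background. The stop allele is a tm1a(EUCOMM) trapping cassette in an intron of Gatad2b, which encodes a subunit of the NuRD chromatin remodeling complex, and it was inherited through the germline rather than induced in 1 cell type. The allele deletes no Gatad2b exon, and normal transcript was not separated from trapped transcript here.

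Most clustered histone genes are replication-dependent: their transcripts accumulate in S phase, when new DNA has to be wrapped around core histones H2A, H2B, H3 and H4 and bound between nucleosomes by linker histone H1. These transcripts usually have no introns and end in a stem-loop rather than a poly(A) tail, and the stem-loop binding protein Slbp binds that loop. Some of the genes can also give a longer, polyadenylated transcript in cells that have left the cell cycle. The libraries were made from poly(A) RNA, so a count here stands for 1 captured polyadenylated or internally primed molecule, not for the whole pool of histone mRNA. A captured molecule counts once whatever the transcript's length, so no length scaling was applied.

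Cells with at least 1000 UMIs (unique molecular identifiers, 1 per captured molecule) and at most 10% mitochondrial UMIs were kept, 65779 in all and 5147 to 8103 per embryo. Kept cells held 82872641 to 123737385 UMIs per embryo. Cells were split by 30 S-phase and 37 G2/M marker genes, none of which is a clustered histone gene. Cells with at least 40 marker UMIs per 10000 were termed dividing (348 to 590 per embryo), and cells with fewer than 10 per 10000 were termed non-dividing (4435 to 7165 per embryo). These classes are ranges of a score, and 55 to 90 cells per embryo lay within 25% of the upper limit. Within 25% of the lower limit lay 554 to 715 cells per WT embryo, 355 to 389 in Het 1 to Het 3, 602 in Het 4 and 329 to 416 per KO embryo. Between the limits, in neither class, were 271 to 525 cells per embryo. The targeted gene Gatad2b was measured over all cells in CPM (TMM-scaled UMI counts per 1000000). Its level was 130.7 to 139 CPM in the WT embryos, 89.8 to 95.7 CPM in the 4 Het embryos and 50.9 to 57.3 CPM in the 3 KO embryos, as the labels order them. No library pair shared more than 0.325% of the barcodes of the smaller library. Library names carry 1 of 2 prefixes: the 3 WT embryos and Het 4 have one, and Het 1 to Het 3 and the 3 KO embryos have the other. Prefix and genotype therefore cannot be told apart between KO and WT, and Het 4 is given apart from Het 1 to Het 3 where a value turns on it. In fits with the prefix as a covariate, only Het 4 against Het 1 to Het 3 informs the prefix term. Values from those fits thus rest on 1 embryo and do not separate prefix from genotype in KO against WT.

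Of the 67 genes, Hist1h2ba and Hist1h2aa had 0 UMIs in the kept cells, and 65 had at least 1. Over all cells 62 had enough UMIs to be tested, in dividing cells 59, and in non-dividing cells 61. Near-identical copies are common in these clusters. For 32 of the 67 genes at least 50% of the 50-base words of the transcript also occur in a transcript of another gene, and for 15 it is at least 85%. For Hist1h2ap the share was 93.1%, for Hist1h4m 89.8% and for Hist1h1e 32%, while Hist1h1b, Hist1h1a, Hist1h1t and Hist2h2be shared none. Reads from shared stretches could be assigned to either copy or dropped, so the levels of such genes are uncertain. On their own strand 7 of the genes overlap another gene. Hist1h1e and Hist1h2be overlap each other and Gm11398, Hist3h2a overlaps Trim17, and Hist2h2bb overlaps Gm42743. By gene span, Hist1h2be covers the annotated 3′ end of Hist1h1e (chr13:23620629 to 23621124). How reads from that stretch were assigned was not examined, so the level of Hist1h1e is uncertain in this respect too. Hist2h3c1 and Hist2h2aa1 overlap Gm20634, and Hist1h2ac overlaps Gm24991.

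The stem-loop is shown for the genes on which the results below turn, since it is where a replication-dependent transcript would end. In the GENCODE vM21 transcripts (GRCm38), 44 of the 67 genes hold a perfect 16-base stem-loop (6 paired bases on each side of a 4-base loop) in the annotated 3′UTR. Capitals mark the stem-loop, the lower-case letters are the flanking bases, and all sequences read 5′ to 3′ on the strand of the gene.
Hist1h1e: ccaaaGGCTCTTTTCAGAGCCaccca
Hist1h1c: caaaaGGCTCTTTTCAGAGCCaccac
Hist3h2a: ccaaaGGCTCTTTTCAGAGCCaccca
Hist3h2ba: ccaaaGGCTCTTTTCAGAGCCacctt
Hist1h2ae: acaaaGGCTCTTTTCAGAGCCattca
Hist1h2ap: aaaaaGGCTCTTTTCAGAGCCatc
Hist1h3e: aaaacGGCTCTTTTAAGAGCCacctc
Hist1h4d: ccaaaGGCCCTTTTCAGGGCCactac
Hist1h4m: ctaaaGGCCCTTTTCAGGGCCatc
The form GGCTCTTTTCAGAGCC was found in 26 genes (3 H1, 10 H2A, 8 H2B and 5 H3) and in no H4 gene. The H4 genes had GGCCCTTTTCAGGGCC in 7 cases, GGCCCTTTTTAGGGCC in 2 and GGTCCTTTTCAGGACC in 2. Hist1h1e has its stem-loop at chr13:23621782-23621797 on the minus strand, and its annotated transcript runs 1153 bases further. The stem-loop of Hist3h2a lies at chr11:58955172-58955187 on the plus strand, 1643 bases before the annotated end, and that of Hist3h2ba at chr11:58949349-58949364 on the plus strand, 169 bases before it. By contrast, the transcript of Hist1h2ap ends 3 bases after its stem-loop (chr13:21833029-21833044, minus strand), and so does that of Hist1h4m (chr13:21812129-21812144, plus strand). Hist1h1b, among the highest genes in dividing cells, has no annotated 3′UTR.

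The promoters of the linker histone genes Hist1h1e and Hist1h1b are shown as 2 examples, chosen after their values were seen. Each run is the 250 bases before the RefSeq start (GRCm38), and capitals mark CCAAT or its reverse complement, AAACACA and TATAAA.
Hist1h1e (chr13:23622559-23622808, minus strand): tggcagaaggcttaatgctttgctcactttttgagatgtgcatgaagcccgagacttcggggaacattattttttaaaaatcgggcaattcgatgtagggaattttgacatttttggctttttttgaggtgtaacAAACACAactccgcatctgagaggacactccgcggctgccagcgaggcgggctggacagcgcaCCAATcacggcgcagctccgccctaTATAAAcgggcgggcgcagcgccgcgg
Hist1h1b (chr13:21780626-21780875, minus strand): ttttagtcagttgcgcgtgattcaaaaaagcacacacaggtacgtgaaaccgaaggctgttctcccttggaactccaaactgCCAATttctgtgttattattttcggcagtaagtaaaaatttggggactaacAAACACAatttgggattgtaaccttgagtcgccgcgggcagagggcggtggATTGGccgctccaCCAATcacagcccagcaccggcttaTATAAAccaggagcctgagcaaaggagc
Both hold all 3 motifs, as does Hist1h1d, which was called in no comparison of KO with WT, while Hist1h1c and Hist1h1t lack TATAAA and Hist1h1a lacks AAACACA. Searched on both strands, AAACACA occurred in 5 of 6 H1 promoters (83.3%) and in 6.25% of all 32851 promoters of the table, but in none of the H3 and H4 promoters. CCAAT occurred in 82.8% of the 64 matches of a promoter to 62 of the genes and in 33.8% of all, although in H4 promoters the share was 25%. TATAAA occurred in 45.3% against 12.4% of all. The matches are not all separate promoters. The same run was matched to Hist1h2ao and Hist1h2ap, and genes on opposite strands, such as Hist1h2ag and Hist1h2bj, can share a stretch.

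To see where in the cell cycle these transcripts were captured, the summed level of the 67 genes was followed along the marker score. In WT it averaged 1096 UMIs per 1000000 in cells with a score under 2 per 10000, 1640 at 10 to 15, 4671 at 60 to 80 and 17142 at 120 to 200 (n = 3 embryos). Above a score of 200 it was lower again (11328 at 200 to 400). In dividing cells the sum was 10760 ± 1154 UMIs per 1000000 in WT (SD, n = 3), 10353 ± 392 in Het 1 to Het 3 (n = 3), 11923 in Het 4 and 10183 ± 348 in KO (n = 3), and these ranges overlapped. In non-dividing cells it was 1162 ± 82 in WT, 1340 ± 43.4 in Het 1 to Het 3, 1206 in Het 4 and 1363 ± 69.9 in KO. The lowest KO embryo was at 1303, the highest WT embryo at 1256, and Het 4 lay inside the WT range. Without Hist3h2a and Hist3h2ba, the other 65 genes took 51.2% of this sum in WT, and their sums overlapped, at 561 to 666 in WT and 611 to 656 in KO. Since non-dividing cells far outnumber dividing ones, dividing cells held a median of 40.02% of all clustered histone UMIs (36.1% to 49.1% across embryos). In erythroid cells, taken as a low reference, the WT sum was 295 UMIs per 1000000.

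**Figure D1:**
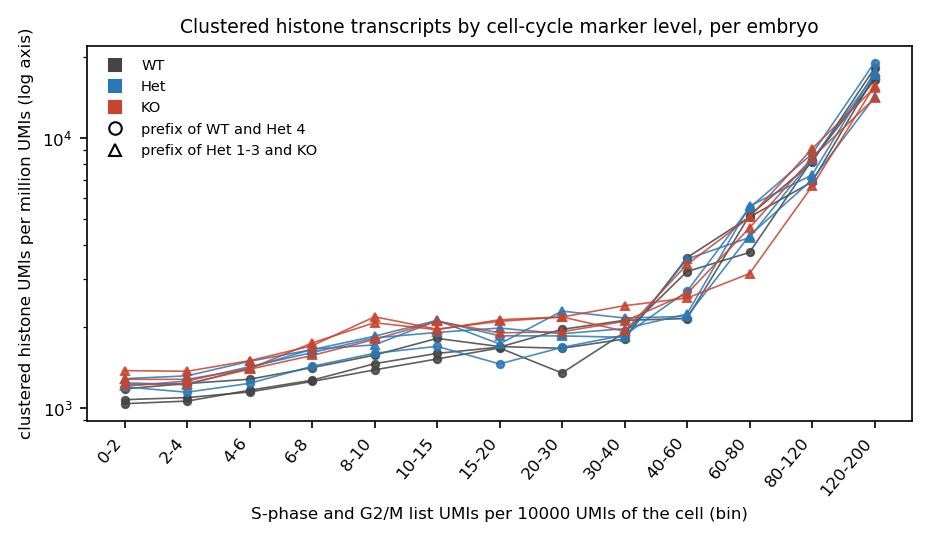
Summed level of the 67 clustered histone genes (UMIs per 1000000, log axis) in bins of the S-phase and G2/M marker score (UMIs per 10000 of the cell), 1 line per embryo, colored by genotype and with the symbol showing the library prefix. Scores above 200 are not drawn. On average over WT embryos the level goes from 1096 in the lowest bin to 17142 at 120 to 200.

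Between dividing and non-dividing cells of the same embryo, 57 of 60 tested genes were higher in dividing cells and 3 were lower (edgeR's quasi-likelihood test with the embryo as a block, called at an adjusted p under 0.05 and a log2 fold change beyond 0.25). Over all genes tested, 35% were higher and 36.7% were lower. The median of the clustered histone genes was 4.03 on the log2 scale. H3 genes reached the largest differences, with Hist1h3b at 8.83 ± 0.08 and Hist1h3c at 8.79 ± 0.08 (log2 fold change ± SE). Among linker histones Hist1h1b differed by 7.54 ± 0.09, Hist1h1a by 5.55 ± 0.06, Hist1h1e by 3.08 ± 0.08 and Hist1h1c by 2.06 ± 0.04. The 3 genes lower in dividing cells were Hist3h2a (-1.43 ± 0.04), Hist3h2ba (-1.06 ± 0.02) and Hist2h3c2 (-0.74 ± 0.21). Hist1h1b had a median of 91.1% of its UMIs in dividing cells, Hist1h2ap 65.3%, Hist1h1e 38.5%, Hist1h1c 25.3%, Hist3h2ba 3.88% and Hist3h2a 3.14%.

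The difference between the classes can be set beside the annotated transcript ends. Of the genes tested, 20 end within 100 bases of their stem-loop, and their median log2 difference was 4.28, with a range of 2.64 to 8.83. Another 21 run on for more than 100 bases, with a median of 2.43 and a range of -1.43 to 4.67. The 19 without an annotated stem-loop had a median of 4.35. The genes that run on supplied 76.8% of the clustered histone CPM in non-dividing WT cells, and those ending at the stem-loop 17.5%. Of the 21, Hist3h2ba alone stood at 428 CPM and Hist3h2a at 128 CPM there. This is a description over genes that share libraries and sequence, and no test was made.

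Dividing cells were divided further into cells with at least 2 times as many S-phase as G2/M marker UMIs, cells with the reverse, and cells high in both lists. In WT the summed level was 3553 ± 1008 UMIs per 1000000 in S-list cells, 18715 ± 2926 in both-list cells and 10355 ± 1285 in G2/M-list cells. Against G2/M-list cells, 1 of 53 tested genes was higher in S-list cells and 50 were lower (of all genes tested, 19.2% were higher and 21.1% lower), the exception being Hist1h3a at 0.43 ± 0.12. Both-list cells were compared with each of the others after those values had been seen. They were higher than S-list cells in 45 of 45 genes, with a median log2 difference of 2.19 (of all genes, 8.68% were higher and 7.62% lower). They were higher than G2/M-list cells in 47 of 55 genes and lower in 3, with a median of 0.55 (of all genes, 14.2% were higher and 13.6% lower). The 3 lower ones were Hist1h2bc (-0.58 ± 0.07), Hist3h2ba (-0.34 ± 0.07) and Hist3h2a (-0.29 ± 0.10). S-list cells made up 18.5% to 18.9% of the dividing cells of WT embryos, 19.3% to 23.0% of those of Het embryos and 15.4% to 22.8% of those of KO embryos, and both-list cells 17.6% to 19.1%, 15.6% to 19.0% and 17.5% to 18.0%. For the S-list share all 4 Het embryos lay above the WT range and no KO embryo lay inside it, with KO embryos on both sides, and no test was made.

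**Figure D2:**
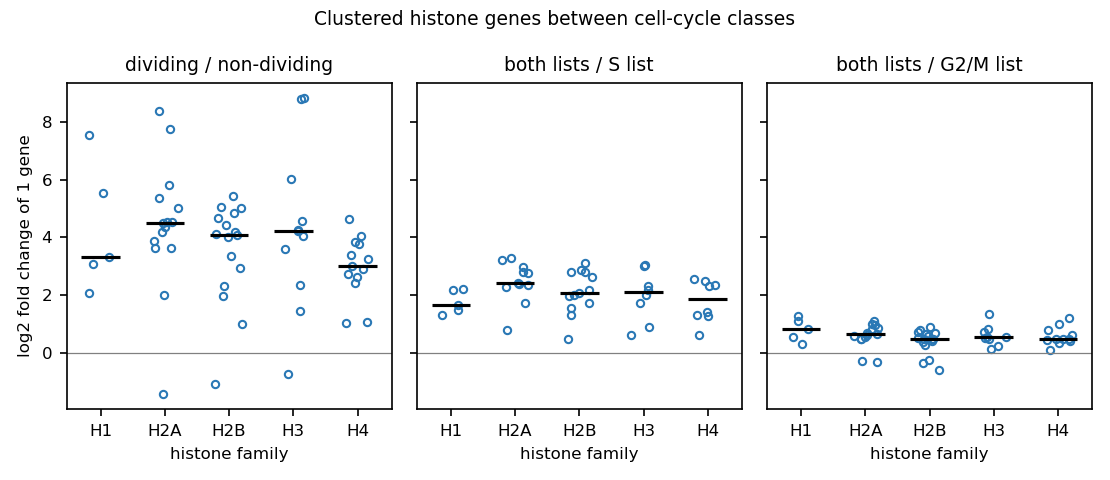
Log2 fold change of each clustered histone gene (1 circle per gene, bars at the family median) between cell-cycle classes of the same 10 embryos, by histone family. Nearly all genes lie above 0 in dividing against non-dividing cells, all 45 lie above 0 in both-list against S-list cells, and the circles below 0 at the left include Hist3h2a at -1.43.

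The share of dividing cells is given beside the levels over all cells. It was 5.38 ± 0.59% in WT, 6.49 ± 0.69% in Het and 8.0 ± 0.41% in KO. KO exceeded WT by 2.62 percentage points (two-sided exact permutation test p = 0.1, the smallest value 3 against 3 embryos can give). With at most 5% mitochondrial UMIs allowed, the difference was 4.4 points. Het exceeded WT by 1.11 points (exact permutation p = 0.114, where the smallest possible is 0.0286), and by 2.13 points with at most 5% mitochondrial UMIs (exact permutation p = 0.0286). Het 4 had the highest share of the Het embryos, 7.45%. Dividing cells were termed inhibitory with at least 3 inhibitory marker UMIs and 3 times the excitatory ones, and excitatory with the reverse. The inhibitory ones were 2.48% of kept cells in WT, 3.35% in Het 1 to Het 3, 4.03% in Het 4 and 4.59% in KO. The excitatory ones were 0.94%, 1.08%, 1.09% and 1.08% in the same order. Inhibitory ones made up 569 of 1235 dividing cells in WT and 781 of 1370 in KO. The part of this difference in the results below was not tested. Fewer cells of a class and less RNA per cell cannot be told apart in values summed over all cells, so KO and WT were compared over all cells and then within each class.

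Over all cells, 24 of 62 tested clustered histone genes rose in KO against WT and 3 fell, where 12% of all genes tested rose and 12.5% fell. Their median log2 fold change was 0.29, and over all genes it was -0.01. By family, 4 of 5 H1 genes rose and none fell, as did 6 of 16 H2B genes. Among H2A genes 7 of 16 rose and Hist1h2ac fell, among H3 genes 5 of 12 rose and Hist1h3d fell, and among H4 genes 2 of 13 rose and Hist1h4f fell. The markers of division moved the same way over all cells: 30 of 37 G2/M genes and 14 of 30 S-phase genes rose and none fell. Other markers moved as well: all 5 intermediate progenitor, 4 of 10 radial glia, 2 of 7 excitatory and 1 of 7 inhibitory neuron markers rose, and 1 radial glia, 1 mural and all 4 tested choroid plexus markers fell. The part of these markers and of the dividing share in the 24 rises was not tested in this sum. The prefix as a covariate left 9 of the 62 genes higher and none lower, among them Hist1h1e, Hist1h1b and Hist1h1a, where 4.23% of all genes were higher and 4.08% lower in that fit.

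Within dividing cells, 9 of 59 clustered histone genes rose in KO and 2 fell, where 4.24% of all genes tested rose and 4.28% fell. The median over the 59 was 0.04. As given above, inhibitory cells made up more of the dividing class in KO than in WT. Here 3 G2/M, 1 S-phase and 2 radial glia markers were higher, and 1 radial glia, 1 choroid plexus and 1 mural marker were lower. Their part in these results was not tested. The 9 that rose included 4 of the 5 linker histone genes (Hist1h1e, Hist1h1b, Hist1h1c and Hist1h1a), with Hist3h2a and Hist1h2ak of H2A, Hist2h2bb of H2B, Hist1h3e of H3 and Hist1h4i of H4. Those that fell were Hist1h2ap and Hist1h4f. With the prefix in the model no clustered histone gene passed, where 0.161% of all genes did. Leaving out WT 3 left 3 calls, KO 3 left 4 and WT 1 left 6, and no share of all genes is given for these fits.

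Within non-dividing cells, 10 of 61 genes rose and 8 fell, where 11% of all genes tested rose and 12% fell. These shares are near the background. Besides Hist1h1e, Hist1h1b and Hist1h1c, the genes that rose were Hist3h2a, Hist3h2ba, Hist2h2be, Hist2h2bb, Hist2h3c1, Hist2h3c2 and Hist1h3e. The 8 that fell were 4 H2A genes (Hist1h2ap, Hist1h2ae, Hist1h2ac and Hist2h2aa1), 3 H2B genes (Hist1h2be, Hist1h2bb and Hist1h2br) and Hist1h3d, and no H4 gene was called. Once the prefix entered the model, Hist1h1b alone passed, where 6.07% of all genes did. Markers of another cell type moved in this class: all 5 intermediate progenitor markers rose in KO, with sums of 99.0 to 113 UMIs per 1000000 in WT embryos, 181 to 229 in KO embryos, 136 to 183 in Het 1 to Het 3, and 158 in Het 4. Of the radial glia markers 4 of 10 rose and 2 fell, of the S-phase markers 4 rose and 4 fell, of the G2/M markers 3 rose and 1 fell, and of the excitatory neuron markers 2 of 7 rose. All 3 choroid plexus markers tested fell, and no inhibitory neuron, erythroid, endothelial, microglia or mural marker was called. The choroid plexus markers summed to 2.38 to 2013 UMIs per 1000000 in WT and to at most 3.73 elsewhere, and the erythroid markers to 5379 in Het 4 and 12429 to 24440 in the other embryos. Their part in these results was not tested.

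Of the called genes, 7 were called in both classes, each with the same sign: Hist1h1e, Hist1h1b, Hist1h1c, Hist3h2a, Hist2h2bb and Hist1h3e rose, and Hist1h2ap fell. They are 63.6% of the calls in dividing cells and 38.9% of those in non-dividing cells. Over all genes called, 58.0% and 16.2% were shared between the classes, and 636 of the 646 shared genes had the same sign. The shared sign and the 63.6% are thus near what all genes gave. Both classes share no cells but come from the same embryos.

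**Figure D3:**
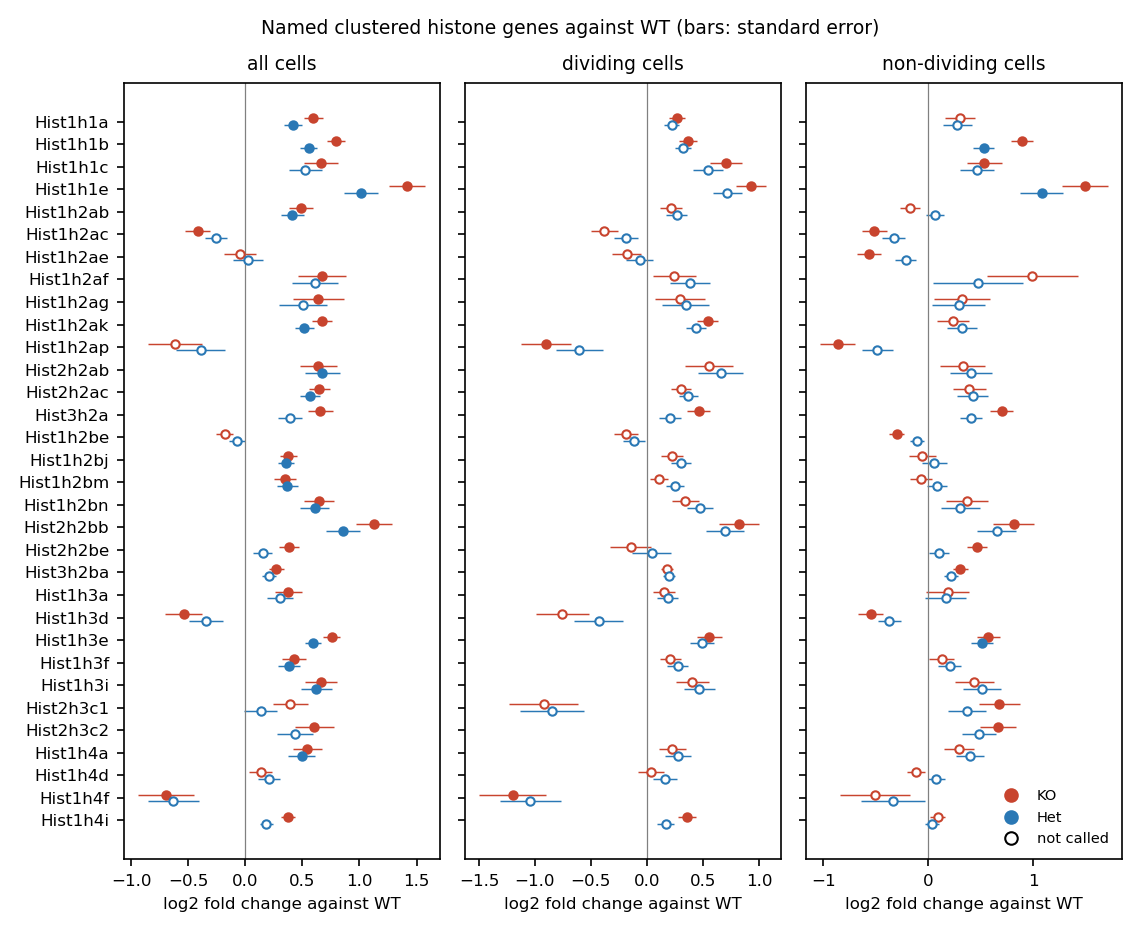
Log2 fold change against WT (point) with its standard error (bar) for the 32 clustered histone genes named by rule, ordered by family, in all, dividing and non-dividing cells. Filled points were called, open points were not, red is KO and blue is Het. The H1 genes at the top lie above 0 in each panel, reaching 1.49 for Hist1h1e in non-dividing KO cells, and Hist1h2ap lies below 0.

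Linker histone H1 binds DNA between nucleosomes, and Hist1h1e encodes one of its most widely made subtypes. In dividing cells Hist1h1e stood at 727, 707 and 597 CPM in WT, 1205, 1308 and 1125 in Het 1 to Het 3, 820 in Het 4, and 1247, 1341 and 1286 in KO. In non-dividing cells it stood at 81.0, 53.1 and 63.4 in WT, 165, 162 and 146 in Het 1 to Het 3, 85.2 in Het 4, and 176, 197 and 183 in KO. In both classes all KO embryos and Het 1 to Het 3 lay above all WT embryos, and Het 4 lay just above the WT range. KO exceeded WT by 0.93 ± 0.14 in dividing cells (log2, edgeR adjusted p = 0.0045) and by 1.49 ± 0.22 in non-dividing cells (adjusted p = 0.00058). Fitted with the prefix as a covariate, these differences were 0.37 (adjusted p = 0.36) and 0.60 (adjusted p = 0.12), and over all cells 0.75 (adjusted p = 0.010) against 1.42 ± 0.16 without it.

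The rise of Hist1h1e was seen in both neuron classes. In excitatory neurons KO exceeded WT by 1.47 ± 0.19 and in inhibitory neurons by 1.67 ± 0.27 (edgeR adjusted p = 0.00013 and 0.0021). After thinning each cell to 3000 UMIs, 13.1% to 19.0% of excitatory neurons held a Hist1h1e UMI in WT, 19.1% in Het 4, 29.5% to 32.9% in Het 1 to Het 3 and 34.9% to 36.5% in KO. Before thinning, at median depths of 14855 to 20454 UMIs, the shares ran from 47.2% in WT to 79.9% in KO. In inhibitory neurons the thinned shares were 23.1% to 30.4% in WT, 29.6% in Het 4, 49.2% to 54.0% in Het 1 to Het 3 and 56.4% to 57.9% in KO. In erythroid cells they were at most 6.45% thinned and 14.5% unthinned, at median depths of 6555 to 11800 UMIs. Over all clustered histone genes, 11 of 58 rose and 8 fell in excitatory neurons, and 8 of 47 rose and 3 fell in inhibitory neurons. Over all genes tested, 26.7% and 12.8% were called in these classes. With the prefix as a covariate no clustered histone gene was called in either, where 10.4% and 0.502% of all genes were. Other markers moved here too. In excitatory neurons all 5 intermediate progenitor markers, 4 of 10 radial glia and 2 of 7 excitatory markers rose, and 6 of 7 inhibitory, 4 of 5 erythroid, 1 of 6 endothelial and both choroid plexus markers tested fell. Of their S-phase markers 4 rose and 5 fell, of the G2/M markers 3 rose and 1 fell, and of the mural markers 1 rose and 1 fell. In inhibitory neurons 2 of 4 intermediate progenitor, 3 of 10 radial glia and 1 of 7 inhibitory markers rose, and 4 of 7 excitatory, 4 of 4 erythroid, 1 of 2 endothelial, 1 of 3 mural markers and the 1 choroid plexus marker tested fell. Of their S-phase markers 1 rose and 1 fell. Their part in the rise of Hist1h1e was not tested.

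The other linker histones had smaller log2 changes than Hist1h1e, not all of them were called, and no test compared the genes. Hist1h1b, the subtype best known from proliferating cells, stood in dividing cells at 1762, 1923 and 1621 CPM in WT, 2168, 2498 and 2101 in Het 1 to Het 3, 2073 in Het 4, and 2237, 2152 and 2442 in KO (KO against WT 0.36 ± 0.08, edgeR adjusted p = 0.019). In non-dividing cells its level was far lower, 6.92 to 8.80 CPM in WT, 11.98 to 12.5 in Het 1 to Het 3, 10.1 in Het 4 and 13.8 to 15.9 in KO (0.89 ± 0.11, adjusted p = 0.00016). Here Het 4 lay above all WT embryos, and KO lay above all Het embryos. The prefix covariate gave 0.24 (adjusted p = 0.57) in dividing and 0.61 (adjusted p = 0.041) in non-dividing cells. Hist1h1c rose by 0.70 ± 0.14 in dividing cells (adjusted p = 0.014), from 138 to 173 CPM in WT to 257 to 263 in KO, with Het 4 at 169, inside the WT range, and the value with the prefix as a covariate was 0.11 (adjusted p = 0.83). In non-dividing cells it rose by 0.53 ± 0.17 (adjusted p = 0.030), but with the prefix as a covariate the value turned to -0.095 (adjusted p = 0.84). Hist1h1a rose in dividing cells by 0.27 ± 0.07 (adjusted p = 0.038, with the prefix 0.32 and adjusted p = 0.38), and Hist1h1d was not called between KO and WT in any class (0.25 ± 0.12 in dividing cells, adjusted p = 0.19).

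The mix of the clustered linker histones differed along with their sum. Linker histones outside the clusters, such as H1f0, were not counted in it. Within the UMIs of the 6 clustered H1 genes in non-dividing cells, Hist1h1e made up 48.0 ± 2.0% in WT (SD, n = 3), 60.5 ± 1.4% in Het 1 to Het 3, 54.7% in Het 4 and 65.4 ± 1.0% in KO. The share of Hist1h1c was 30.2 ± 1.8% in WT, 24.0 ± 0.9% in Het 1 to Het 3 and 21.2 ± 0.8% in KO, with Het 4 at 26.0%. That of Hist1h1d was 13.2 ± 0.5% in WT, 9.1 ± 0.6% in Het 1 to Het 3 and 6.6 ± 0.4% in KO. Het 4 was at 10.2% for Hist1h1d, below the WT range of 12.8% to 13.8%. These shares come from the values tested above and were not tested again.

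Among the H2A genes the direction was mixed. Hist1h2ap, a canonical H2A gene with near-identical copies, was the highest clustered histone gene in dividing WT cells. It stood there at 2963, 4053 and 3279 CPM in WT, 1806, 1765 and 1997 in Het 1 to Het 3, 3462 in Het 4, and 2122, 1795 and 1603 in KO. Het 4 lay inside the WT range and above the other Het embryos, while Het 1 to Het 3 and KO overlapped. KO fell against WT, with a log2 change of -0.90 ± 0.23 (edgeR adjusted p = 0.030). The log2 change with the prefix as a covariate was -3.3e-05 (adjusted p = 0.99992). In non-dividing cells it stood at 158, 142 and 130 in WT, 99.0, 86.8 and 91.6 in Het 1 to Het 3, 133 in Het 4, and 93.5, 79.3 and 63.6 in KO (-0.86 ± 0.16, adjusted p = 0.0025), and the prefix covariate left -0.34 (adjusted p = 0.39). Hist1h2ae fell in non-dividing cells, with a log2 change of -0.56 ± 0.11 (adjusted p = 0.0033), from 63.7 to 70.5 CPM in WT to 40.8 to 50.2 in KO. Het 4 was at 70.5 and Het 1 to Het 3 were at 52.4 to 53.3, and with the prefix in the model the change was -0.15 (adjusted p = 0.51).

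Hist3h2a lies apart from the large clusters and next to Hist3h2ba, and both were highest in non-dividing cells. Hist3h2a stood there at 134, 125 and 124 CPM in WT, 186, 175 and 181 in Het 1 to Het 3, 135 in Het 4, and 202, 233 and 187 in KO. The value of Het 4 was next to the highest WT embryo, and KO lay above all Het embryos. It rose by 0.70 ± 0.11 (adjusted p = 0.0010) in non-dividing and by 0.46 ± 0.10 (adjusted p = 0.021) in dividing cells. With the prefix in the model these values were 0.27 (adjusted p = 0.23) and 0.14 (adjusted p = 0.79). Hist3h2ba, the most abundant clustered histone gene of non-dividing cells, stood at 414 to 446 CPM in WT, 498 to 530 in Het 1 to Het 3, 462 in Het 4 and 492 to 586 in KO, and rose by 0.30 ± 0.07 (adjusted p = 0.0071), or 0.16 with the prefix (adjusted p = 0.45).

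In the summed families of dividing cells, H1 genes took 27.8% of the clustered histone UMIs in WT (26.5% to 30.0%), 39.7% in Het 1 to Het 3, 29.0% in Het 4 and 40.8% in KO (38.2% to 43.6%). H2A genes took 52.0%, 37.5%, 50.02% and 37.3% in the same order. In non-dividing cells the H1 shares were 11.9%, 19.2%, 13% and 20.5%. Within the dividing and the non-dividing class, the share of H1 in Het 4 lay in the WT range, and those of Het 1 to Het 3 lay near KO. Genotype was not told apart from the prefix by these shares.

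**Figure D4:**
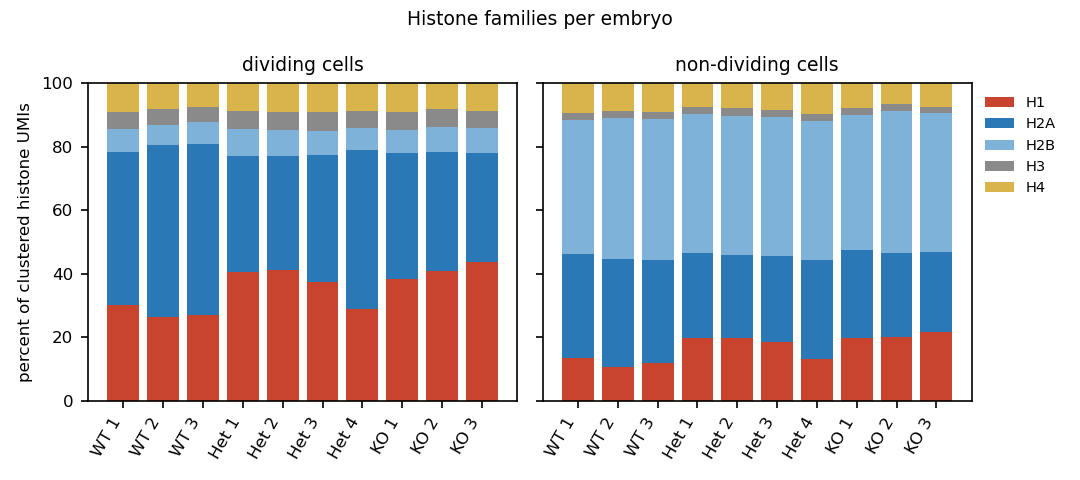
Share of each histone family in the clustered histone UMIs of dividing (left) and non-dividing (right) cells, 1 bar per embryo stacked to 100%. The H1 part (bottom) of dividing cells is 27.8% on average in WT and 29.0% in Het 4, and 39.7% in Het 1 to Het 3 and 40.8% in KO.

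The H2B gene Hist2h2bb rose in dividing cells by 0.83 ± 0.18 (edgeR adjusted p = 0.018), from 33.8 to 39.3 CPM in WT to 64.9 to 66.6 in KO, with Het 4 at 40.1 and Het 1 to Het 3 at 60.4 to 78.1. In non-dividing cells its level was 1.05 to 1.23 in WT and 1.83 to 2.22 in KO. With the prefix as a covariate its changes in these classes were 0.073 (adjusted p = 0.92) and 0.051 (adjusted p = 0.92). The H3 gene Hist1h3e stood at 97.4 to 118 CPM in dividing WT cells, 145 to 172 in Het 1 to Het 3, 124 in Het 4 and 144 to 164 in KO (0.56 ± 0.11, adjusted p = 0.015), and the prefix covariate left 0.19 (adjusted p = 0.71). Hist1h3d fell in non-dividing cells, from 7.14 to 7.49 CPM in WT to 4.6 to 5.31 in KO, with Het 4 at 6.79, a log2 change of -0.55 ± 0.12 (adjusted p = 0.0053) that was -0.20 with the prefix (adjusted p = 0.53). Over all cells its log2 change was -0.54 ± 0.16 (adjusted p = 0.023), and it was 0.12 with the prefix as a covariate. Among H4 genes, Hist1h4i rose in dividing cells by 0.36 ± 0.08 (adjusted p = 0.018, with the prefix 0.12 and adjusted p = 0.74), and Hist1h4d, the highest H4 gene in dividing WT cells, gave 0.04 ± 0.11 there (adjusted p = 0.87).

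Hist1h4m, an H4 gene with near-identical copies, split the libraries in a different way. Over all cells it had 89, 64 and 101 UMIs in WT, 2, 0 and 0 in Het 1 to Het 3, 81 in Het 4, and 56, 0 and 0 in KO. Embryos at or near 0 and embryos with 56 UMIs or more thus occurred within KO and within Het, and KO 1 resembled WT and Het 4 although it carries the other prefix. Hist1h4m was not called in any comparison between genotypes (KO against WT over all cells -2.07 ± 1.28, edgeR adjusted p = 0.23).

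**Figure D5:**
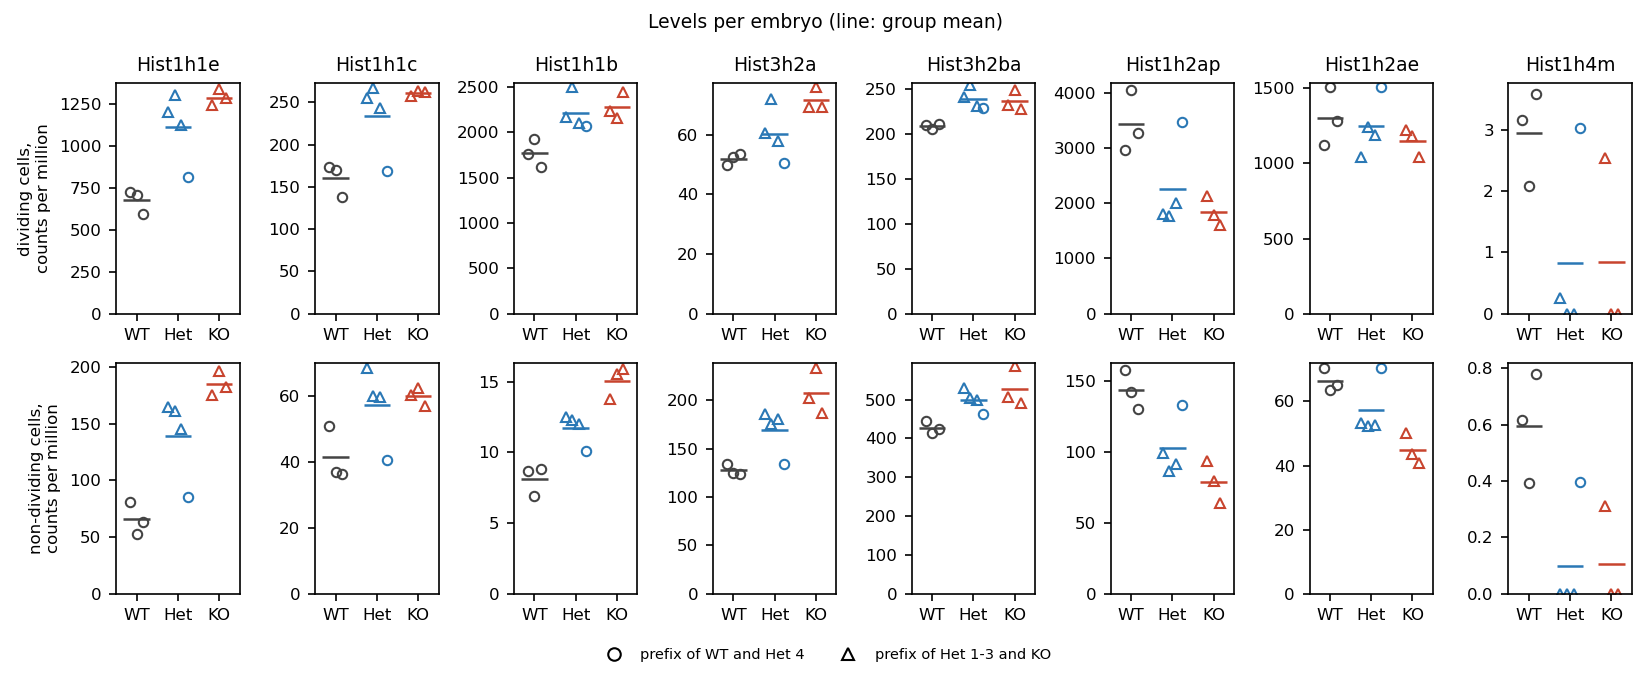
Level in CPM of 8 clustered histone genes in dividing (top) and non-dividing (bottom) cells, 1 point per embryo with the line at the group mean, circles for the prefix of WT and Het 4 and triangles for the other. Het 4, the blue circle, is at 820 for Hist1h1e and 3462 for Hist1h2ap in dividing cells, near WT in both cases, while for Hist1h1b it is at 2073, near the triangles.

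Heterozygous embryos were then compared with WT. Over all cells 15 of 62 clustered histone genes rose and none fell, where 2.98% of all genes tested were called. In non-dividing cells 3 of 61 rose (Hist1h1e, Hist1h1b and Hist1h3e), where 1.26% of all genes were called. In dividing cells none of 59 was called by edgeR, where the share over all genes was 0% and 25 of the 59 had an unadjusted p under 0.05, as did 13.3% of all genes. DESeq2 called 5 of the 59, and 0.337% of all genes. Single embryos moved these counts: without Het 4 they were 24, 14 and 13. For fits that leave out an embryo no share of all genes is given, so such counts are not read as particular to these genes. Over all cells the count was 4 without WT 1, 4 without WT 3, 5 without Het 1 and 7 without Het 2 or Het 3. In non-dividing cells it was 0 without any 1 WT embryo, without Het 1, Het 2 or Het 3, and without KO 2 or KO 3, and it was 1 without KO 1. With the prefix as a covariate all 3 counts were 0, where 0.232% of all genes were called over all cells, 0.0984% in non-dividing and 0% in dividing cells. Markers moved over all cells too: 7 of 37 G2/M, 4 of 30 S-phase, 3 of 5 intermediate progenitor, 1 radial glia and 1 mural marker rose, and all 4 tested choroid plexus markers fell. In non-dividing cells 2 of 5 intermediate progenitor markers and 1 radial glia marker rose and 1 choroid plexus marker fell. Their part in these counts was not tested.

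The next 2 comparisons stay inside 1 prefix. KO against Het 1 to Het 3 gave 0 of 63 calls over all cells, 0 of 61 in dividing and 0 of 61 in non-dividing cells by edgeR, where 5.51%, 0.137% and 5.35% of all genes were called. At an unadjusted p under 0.05 there were 7, 2 and 11, where 22.6%, 9.59% and 21.8% of all genes passed. DESeq2 called 2, 0 and 2, where it called 6.3%, 0.462% and 6.06% of all genes. The replicate numbers met the criterion for pairing between these groups, but Het 1 and KO 2, of different numbers, correlated as highly (0.111). With the replicate number as a block edgeR called 1 gene, Hist1h1d in non-dividing cells (-0.36 ± 0.07, adjusted p = 0.012). That fit leaves out Het 4 and called 5.98% of all genes over all cells, 0.0921% in dividing and 6.23% in non-dividing cells. Het 4 against WT likewise gave 0, 0 and 0, where 0.162%, 0% and 0.0992% of all genes were called, with 26, 11 and 2 at an unadjusted p under 0.05, where 10.5%, 5.09% and 8.07% of all genes passed. DESeq2 called 11, 0 and 0, where it called 1.36%, 0.0144% and 0.783% of all genes. Here 1 embryo stands against 3 and is assumed to vary like the other groups. Hist1h1e in non-dividing cells differed by 0.23 ± 0.12 between KO and Het 1 to Het 3 (adjusted p = 0.30) and by 0.37 ± 0.17 between Het 4 and WT (adjusted p = 0.62). The corresponding values of Hist1h1b were 0.30 ± 0.09 (adjusted p = 0.076) and 0.31 ± 0.13 (adjusted p = 0.57).

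The position of Het 4 was also counted gene by gene among the genes called between KO and WT. On the log2 scale Het 4 was nearer the WT mean than the mean of Het 1 to Het 3 for 7 of 11 called genes in dividing cells and 12 of 18 in non-dividing cells, and for 8 of 27 over all cells. Over all genes called, these shares were 48.2%, 51.4% and 46.8%, against 63.6%, 66.7% and 29.6% of the clustered histone genes. The 4 embryos of one prefix did not overlap with the 6 of the other for 9, 12 and 11 of these genes, or 81.8%, 66.7% and 40.7%, against 46.4%, 47.1% and 44.7% of all genes called. Hist1h1b over all cells was at 199.8 CPM in Het 4, 115 to 150 in WT and 180 to 197 in Het 1 to Het 3. These counts describe genes chosen for differing between KO and WT, and no test was made on them.

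Whether KO and WT differed by different amounts in the 2 classes was tested directly. Of 63 clustered histone genes, 2 were called, where 2.33% of all genes were. The difference for Hist1h1e was smaller in dividing cells by a log2 value of -0.58 ± 0.14 (edgeR adjusted p = 0.046). Hist1h2bb, an H2B gene, went the other way (0.49 ± 0.10, adjusted p = 0.030), with 0.01 ± 0.11 in dividing and -0.48 ± 0.13 in non-dividing cells. Hist1h1b gave -0.54 ± 0.13 and did not pass (adjusted p = 0.057). Leaving out KO 1 or KO 3 removed both calls.

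Genes that act with these histones are read against the same shares of all genes, which were 12% higher and 12.5% lower over all cells, 4.24% and 4.28% in dividing cells, and 11% and 12% in non-dividing cells. Among 22 tested genes of histone mRNA processing and transcription, 1 rose and 1 fell in KO over all cells: Snrpb, a protein of spliceosomal particles, rose by 0.25 ± 0.05, and Hinfp, a transcription factor of H4 genes, changed by -0.40 ± 0.07. Among 14 histone chaperones Hat1, which acetylates new H4, rose by 0.38 ± 0.07 and Mms22l by 0.42 ± 0.09, and in dividing cells none of the 14 was called. In non-dividing cells 2 chaperones fell, Chaf1b by 0.42 and Tonsl by 0.50, and Hinfp fell again. In dividing cells Cpsf1, of the 3′ end processing machinery, was the 1 processing gene that rose (0.37). The replication-independent histones, which are made outside S phase too, rose in 7 of 11 cases over all cells, 5 of 11 in dividing and 3 of 11 in non-dividing cells, and none fell. H1f0, the linker histone of cells leaving the cycle, rose by 0.46 ± 0.06 in dividing and 0.81 ± 0.07 in non-dividing cells. H3f3b, which encodes H3.3, rose by 0.48 ± 0.07 and 0.66 ± 0.07. With the prefix as a covariate, 6, 0 and 2 of these 11 genes were higher over all, dividing and non-dividing cells. Of all genes, that fit called 4.23% higher and 4.08% lower over all cells. In either direction it called 0.161% in dividing and 6.07% in non-dividing cells. In dividing and non-dividing cells H1f0 gave 0.43 (edgeR adjusted p = 0.17) and 0.84 (adjusted p = 0.0033), and H3f3b 0.17 (adjusted p = 0.37) and 0.43 (adjusted p = 0.010). In that fit none of the processing genes and chaperones named so far was called. The calls among these lists were Slbp, the stem-loop binding protein, at 0.31 and Ipo4 at -0.31, both over all cells. Short of the fold-change limit alone were Slbp in non-dividing cells (0.241, edgeR adjusted p = 0.038) and Casp8ap2 over all cells (0.246, adjusted p = 0.021). Levels of H3f3b in non-dividing cells were 2356 to 2566 CPM in WT, 2799 in Het 4, 3146 to 3415 in Het 1 to Het 3 and 3718 to 4006 in KO.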

How the data were processed

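The deposited files hold raw UMI counts per gene and cell barcode for each embryo, which the authors made with Cell Ranger 6.0.2 and mm10 per the labels, without pooling embryos. Cells under 1000 UMIs or over 10% mitochondrial UMIs were left out. Doublets were not removed; leaving out the 5% of cells with the most UMIs was an alternative. Counts were summed per embryo and class and tested with edgeR 4.0.16 (TMM scaling, default count filter, quasi-likelihood test, Benjamini-Hochberg over all genes tested). Calls needed both an adjusted p below 0.05 and a log2 fold change larger than 0.25 in either direction. CPM values are TMM-scaled, whereas UMIs per 1000000 are unscaled. Each embryo is 1 replicate, and the p-values set a group difference against the spread within groups of 3 or 4 libraries. They do not account for a difference between the prefixes. Excitatory and inhibitory neurons were non-dividing cells with at least 3 UMIs of one marker list and 3 times the other.

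Genes named with values were those called in KO or Het against WT in all, dividing or non-dividing cells (at most 30, by adjusted p in KO against WT over all cells), and the 5 highest in WT in each class; of other lists, the 3 called genes with the smallest adjusted p. Hist1h4m, Hist1h2bb, Hist1h2br, Hist2h2aa1, Hist1h3b, Hist1h3c, Hist1h2bc, Hist1h1d, Chaf1b, Tonsl, Cpsf1, Slbp, Ipo4 and Casp8ap2 fall outside this rule and were named after their values were seen. The genes, lists and classes were chosen with earlier results of these data known.

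In simulated counts for KO against WT, changes of 1 on the log2 scale were called for 73 of 100 genes in dividing and 71 of 100 in non-dividing cells, and changes of 0.5 for 39 and 62. Of the unchanged genes 6 and 5 were called. The simulation held no prefix difference and only 100 changed genes of each size, so these rates may not hold in the data. Alternatives were DESeq2 1.42.0, its size factors, no count filter, the replicate number as a block, the prefix as a covariate, only the 2 groups compared, other cell filters and cutoffs, and leaving out each embryo. Annotation was GENCODE vM21, and promoters were from RefSeq (GRCm38). Protein sequences were not used here. Embryos were taken as paired by number where every same-numbered pair of 2 groups had deviations from the group means correlated above 0.1, which held for KO with Het (3 of 3 pairs) only.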

Additional observations from a re-analysis of the deposited data

Results flagged for a closer look

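In 3 of 54 tested sets of Het values (1 gene in 1 class, 4 embryos) Het 4 stood far from the other 3, and in 1 set Het 1 did; chance alone gives such a gap in about 1 of 20 sets. Hist3h2a over all cells was at 125 CPM in Het 4 and 166 to 173 in the others. Hist1h2ap in dividing cells was at 3462 CPM in Het 4 and 1765 to 1997 in the others. Hist1h2ae in non-dividing cells was at 70.5 CPM in Het 4 and 52.4 to 53.3 in the others. Hist1h2bn over all cells was at 5.18 CPM in Het 1 and 4.48 to 4.59 in the others. The first of these values of Het 4 lay in the WT range of 118 to 127 CPM, the second in the range of 2963 to 4053, and the third at the upper end of the range of 63.7 to 70.5. For Hist1h1e and Hist1h2bb the difference between KO and WT was not equal in dividing and non-dividing cells by edgeR's interaction test (-0.58 and 0.49 on the log2 scale). These are 2 of 63 genes, where 2.33% of all genes were called, and both calls were lost without KO 1 and without KO 3.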

How the results depend on the processing

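Counts below are of clustered histone genes called. Where no share of all genes is given above for a setting, its counts cannot be read as particular to these genes. With the prefix as a covariate KO against WT fell to 9 over all cells, 0 in dividing, 1 in non-dividing, 0 in excitatory and 0 in inhibitory cells, and Het against WT to 0 over all and 0 in non-dividing cells; Hist1h3d turned to 0.12 over all cells and Hist1h1c to -0.095 in non-dividing cells. Deviations of same-numbered embryos correlated above 0.1 in 4 of 9 pairs, among them all 3 pairs of KO with Het (0.102 to 0.113). Differently numbered pairs of KO with Het ran from -0.228 to 0.111 (Het 1 with KO 2), so pairing by number is not established. With the replicate block the counts were 17 for KO in dividing cells and 25, 9 and 17 for Het over all, dividing and non-dividing cells. That block gave 1 for KO against Het 1 to Het 3 in non-dividing cells. DESeq2 gave 11 for Het 4 against WT over all cells, 2 and 2 for KO against Het 1 to Het 3 over all and non-dividing cells, 6 for the difference between classes, and 5 and 7 for Het in dividing and non-dividing cells. Without a count filter Het 4 gave 4 over all cells, the difference between classes 4 and Het in dividing cells 1. With only the groups compared, KO against Het 1 to Het 3 gave 2 over all and 2 in non-dividing cells, and Het 6 and 0. At most 5% mitochondrial UMIs gave 5 for the difference between classes, and a Het share of dividing cells 2.13 points above WT (exact permutation p = 0.0286) and a KO share 4.4 points above it. Cutoffs of 80 and 5 gave 1 for KO against Het 1 to Het 3 in non-dividing cells and 7 in inhibitory neurons; without the 5% of cells with most UMIs these were 2 for KO against Het 1 to Het 3 in non-dividing cells, 4 for the difference between classes and 3 for Het in dividing cells. Leaving out 1 embryo gave, for KO against WT, 21 to 31 over all cells, 3 to 16 in dividing, 13 to 19 in non-dividing, 12 (without WT 2) to 21 in excitatory and 6 to 14 in inhibitory cells (6 without KO 2, 7 without KO 3, 7 without WT 3). For Het it gave 4 (without WT 1 or WT 3) to 24 (without Het 4) over all cells, 0 to 13 in dividing and 0 to 14 in non-dividing cells, both highest without Het 4. The other ranges were 0 to 5 for Het 4 over all cells (5 without WT 2) and 0 to 0 in its other classes, 0 to 1, 0 to 0 and 0 to 3 for KO against Het 1 to Het 3 over all, dividing and non-dividing cells (3 without KO 1), 0 to 5 for the difference between classes (5 without WT 2), 60 to 61 for dividing cells, 50 to 51 for S-list cells, and 2.39 to 2.96 and 0.793 to 1.45 points for the KO and Het shares. Of 1420 values for 71 gene results, 1165 kept direction and call, 253 lost the call and 2 turned sign; 60 of the 253 were under the prefix covariate. The cause was not tested.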
